A study of Mus musculus with 48 samples.

Results

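The genes described here are 50 cell cycle and DNA replication genes, chosen by symbol, of the 18782 genes in the count table. That table covers 48 thoracic aortas, each from a separate mouse and sequenced as 1 library. All 50 were in the table and all 50 passed the filter on low counts, which left 14431 genes for testing. They were split into 16 replication members and 34 mitotic members. The mice were C57BL/6J. MaCon (n = 10) were males and FeCon (n = 10) females on normal drinking water, over the same 28 days and from the same age of 3 weeks as the others. MaNonAD (n = 4), MaAAD (n = 7), FeNonAD (n = 8) and FeAAD (n = 9) had received 0.4% BAPN (β-aminopropionitrile, an inhibitor of the lysyl oxidases that cross-link collagen and elastin) in what they drank for 28 days, beginning when they were 3 weeks old. BAPN mice were called NonAD or AAD by what was seen in the aorta at the end: AAD aortas held a dissection or an aneurysm, and NonAD aortas had no detectable lesion. NonAD and AAD therefore differ by outcome and not by treatment, and mice that died during the 28 days are in no group. The segments sequenced were whole wall, so a change can lie in any cell of the wall or of the blood and tissue attached to it.

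A dividing cell copies its DNA once and then separates the copies. Origins of replication are licensed when CDC6 and CDT1 load the MCM helicase, E2F factors switch on the genes for DNA synthesis, and the mitotic genes, held down by the DREAM complex in resting cells, are switched on later by B-MYB and FOXM1, when the cell prepares to divide. Smooth muscle cells of the adult aorta rarely divide, and they, fibroblasts and leukocytes can all enter the cycle after injury.

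Promoter sequences are shown first, since motifs known from cell cycle promoters can be read in them. Each is the run of 250 bases before the annotated start of transcription (RefSeq, GRCm38.p6), 5′ to 3′ along the gene's own strand, for the 4 members of each list with the largest mean change between AAD and Con. These coordinates are of GRCm38.p6 and not of GRCm39, the build the submitters name. Capitals mark 3 motifs searched on both strands: the E2F element (TTTCCCGC, TTTGGCGC, TTTCGCGC or TTTGCCGC), the cell cycle homology region or CHR (TTTGAA or TTCGAA) and the CCAAT box. TTCGAA reads the same on both strands, and no sites marked here overlap. Some of these windows contain starts of other annotated transcripts of the gene. The window of Kif2c lies inside the gene as GENCODE M21 gives it, which on the minus strand begins at position 117182639, and the RefSeq start it precedes was not found among GENCODE transcript starts. The replication members were E2f8, Dtl, Uhrf1, which has a pair of annotated starts, and Rrm2.
E2f8, chr7:48881597-48881846, minus strand: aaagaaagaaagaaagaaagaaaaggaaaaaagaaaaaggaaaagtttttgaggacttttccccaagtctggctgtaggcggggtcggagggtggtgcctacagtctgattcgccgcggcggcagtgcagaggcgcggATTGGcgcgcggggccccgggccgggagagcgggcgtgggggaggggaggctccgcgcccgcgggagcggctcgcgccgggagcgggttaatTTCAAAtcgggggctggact
Dtl, chr1:191575545-191575794, minus strand: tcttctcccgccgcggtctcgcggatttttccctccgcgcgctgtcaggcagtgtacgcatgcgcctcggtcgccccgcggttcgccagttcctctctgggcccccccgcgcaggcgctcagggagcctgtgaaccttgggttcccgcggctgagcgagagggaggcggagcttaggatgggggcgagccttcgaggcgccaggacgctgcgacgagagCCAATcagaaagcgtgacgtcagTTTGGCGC
Uhrf1 (promoter A), chr17:56303087-56303336, plus strand: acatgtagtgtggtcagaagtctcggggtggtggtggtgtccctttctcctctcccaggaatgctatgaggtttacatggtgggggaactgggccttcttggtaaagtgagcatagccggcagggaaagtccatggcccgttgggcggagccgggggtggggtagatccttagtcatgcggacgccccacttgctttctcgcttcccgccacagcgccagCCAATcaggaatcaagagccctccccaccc
Uhrf1 (promoter B), chr17:56304063-56304312, plus strand: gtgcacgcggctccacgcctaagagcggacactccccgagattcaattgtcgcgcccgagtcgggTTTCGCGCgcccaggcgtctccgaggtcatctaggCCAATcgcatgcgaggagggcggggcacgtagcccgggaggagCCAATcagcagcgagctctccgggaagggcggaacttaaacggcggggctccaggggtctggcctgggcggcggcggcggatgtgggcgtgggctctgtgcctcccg
Rrm2, chr12:24708004-24708253, plus strand: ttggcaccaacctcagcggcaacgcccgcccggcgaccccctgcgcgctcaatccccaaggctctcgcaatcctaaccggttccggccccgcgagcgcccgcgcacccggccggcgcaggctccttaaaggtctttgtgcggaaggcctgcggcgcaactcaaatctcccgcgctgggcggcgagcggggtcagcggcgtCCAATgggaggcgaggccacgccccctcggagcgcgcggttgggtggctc

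The mitotic members were Melk, in which no motif was found, Ccnb1, Kif2c and Cdk1, the last with all 3 motifs.
Melk, chr4:44300667-44300916, plus strand: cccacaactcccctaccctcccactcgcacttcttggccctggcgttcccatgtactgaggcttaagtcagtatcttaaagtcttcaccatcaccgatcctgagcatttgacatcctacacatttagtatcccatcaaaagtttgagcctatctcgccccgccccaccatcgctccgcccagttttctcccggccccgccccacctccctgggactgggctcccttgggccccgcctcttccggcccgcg
Ccnb1, chr13:100786487-100786736, minus strand: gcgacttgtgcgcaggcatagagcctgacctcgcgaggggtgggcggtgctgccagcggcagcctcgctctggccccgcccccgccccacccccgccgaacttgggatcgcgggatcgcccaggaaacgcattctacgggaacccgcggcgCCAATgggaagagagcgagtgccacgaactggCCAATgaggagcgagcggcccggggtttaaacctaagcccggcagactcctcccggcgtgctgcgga
Kif2c, chr4:117178773-117179022, minus strand: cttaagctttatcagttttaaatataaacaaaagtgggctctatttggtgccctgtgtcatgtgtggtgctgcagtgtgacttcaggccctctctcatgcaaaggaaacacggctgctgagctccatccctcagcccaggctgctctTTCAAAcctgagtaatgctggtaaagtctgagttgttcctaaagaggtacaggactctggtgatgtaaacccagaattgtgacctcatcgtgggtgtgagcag
Cdk1, chr10:69352913-69353162, minus strand: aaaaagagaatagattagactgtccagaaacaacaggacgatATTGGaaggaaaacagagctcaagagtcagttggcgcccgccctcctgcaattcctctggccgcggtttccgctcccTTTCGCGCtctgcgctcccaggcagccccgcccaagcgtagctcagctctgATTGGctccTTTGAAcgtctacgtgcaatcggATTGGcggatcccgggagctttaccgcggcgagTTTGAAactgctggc

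Of the 16 replication members 14 had promoter entries, with 16 windows, and of the 34 mitotic members 27 had them, with 28 windows. The E2F element was in 6 of the 16 replication windows (37.5%), in 1 of the 28 mitotic windows (3.57%) and in 1.86% of all 32851 windows in the table. The replication windows with it were those of Cdc6, Dtl, Mcm5, Mcm6, Mcm7 and Uhrf1, and the mitotic window was that of Cdk1. The CHR was in 10 of the 28 mitotic windows (35.7%), in 3 of the 16 replication windows (18.8%) and in 17.1% of all windows. A CCAAT box was in 22 mitotic windows (78.6%) and 12 replication windows (75.0%), against 33.8% of all. CHR and CCAAT stood together in 9 of the 28 mitotic windows (32.1%), among them those of Ccnb2, Cdc20, Kif11, Mki67, Top2a and Ube2c, in 3 of the 16 replication windows (18.8%) and in 6.02% of all windows. No difference between the lists was tested. Mcm7, Prc1 and Uhrf1 have 2 windows each. These are matches of letters and do not show binding, and a window without a match says only that these letters are not in it.

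The mean level of both lists was lowest in the controls, higher in NonAD and highest in AAD, in both sexes. Levels are in CPM, that is, counts relative to a library total adjusted by TMM factors, and list means are means of log2(CPM + 1) over members, given as descriptions with no test. For the 34 mitotic members the mean was 1.15 ± 0.18 (SD) in FeCon, 1.90 ± 0.56 in FeNonAD and 3.57 ± 1.17 in FeAAD. In males it was 1.29 ± 0.34 in MaCon, 2.11 ± 0.42 in MaNonAD and 3.36 ± 0.67 in MaAAD. For the 16 replication members the corresponding means were 2.71 ± 0.08, 3.07 ± 0.20 and 4.10 ± 0.73 in females. They were 2.80 ± 0.17, 3.16 ± 0.15 and 3.99 ± 0.55 in males. Summed over members, the mitotic genes went from a median of 47.1 CPM in FeCon to 506 CPM in FeAAD and from 51.4 CPM in MaCon to 405 CPM in MaAAD. The replication genes, which started higher, went from 200.9 to 357 CPM in females and from 199.5 to 345 CPM in males. In bulk tissue, more cells in cycle and more RNA per cycling cell cannot be told apart.

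**Figure D1:**
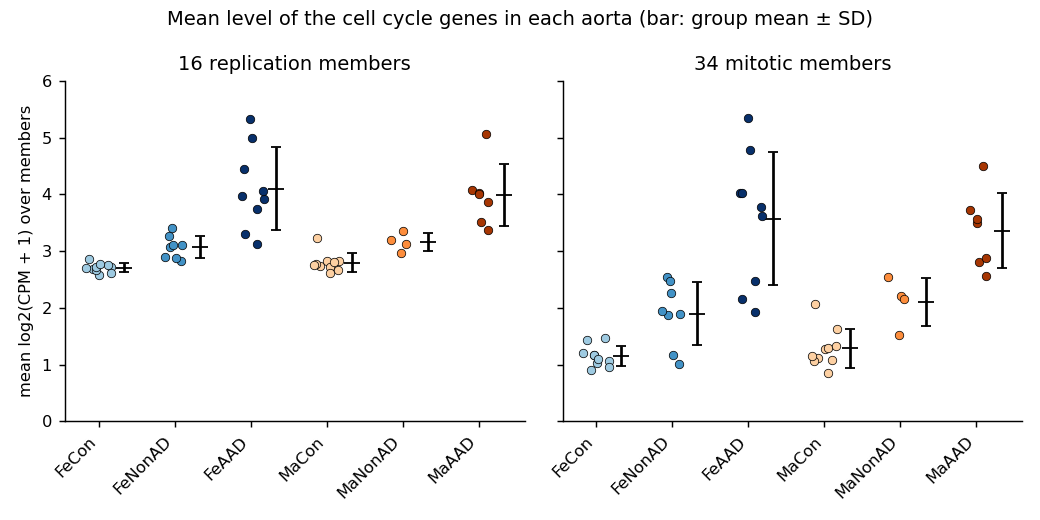
Mean log2(CPM + 1) over the 16 replication members (left) and the 34 mitotic members (right), 1 point per aorta, with the group mean ± SD beside each group. All 9 FeAAD aortas lie above all 10 FeCon aortas in both panels, and FeAAD spans the widest range, from 1.93 to 5.35 for the mitotic members.

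Several libraries stood apart from their groups. Library totals ranged from 13548003 to 17281262 counts, TMM factors from 0.874 to 1.08, and no libraries were identical. MaCon2 held 125 CPM of 9 thymocyte and lymphoid precursor markers, against 1.07 to 17.0 CPM in the other MaCon, and 189 CPM of 8 T cell markers. These markers were also above 20 CPM in MaNonAD2, MaAAD1 and FeNonAD5. Neutrophil markers (7 genes) summed to 888 CPM in FeAAD5, 202 CPM in FeAAD9 and 241 CPM in MaAAD7, against at most 55.8 CPM in any other library. Macrophage markers (10 genes) rose in both AAD groups, with 9 of 10 called higher than in Con in each sex, and FeAAD5 had the highest sum, at 5940 CPM. B cell markers (7 genes) were called higher for 7 of 7 in FeAAD, 4 of 7 in MaAAD, 5 of 7 in MaNonAD and 1 of 7 in FeNonAD, with summed levels of 2.48 to 34.6 CPM in FeAAD, 2.92 to 13.0 CPM in MaAAD 8.53 to 24.0 CPM in MaNonAD and 1.64 to 9.41 CPM in FeNonAD, where FeNonAD5 was highest, against at most 2.66 CPM in FeCon and 6.41 CPM in MaCon. Erythroid markers were called higher for 6 of the 6 tested in FeAAD, and FeAAD2 held 26926 CPM of them. In MaNonAD their median log2 fold change was 2.11 over the 6 tested, short of a call, and MaNonAD4 held 5182 CPM, against a median of 452 CPM in MaCon. The part of the macrophage, B cell, fibroblast, cardiac muscle and erythroid markers in the results was not tested, other than by leaving out FeAAD2. Smooth muscle markers fell in AAD, with 3 of 7 called lower in FeAAD and 4 of 7 in MaAAD. Of 7 fibroblast markers 2 were called higher in each AAD group, with median sums of 6299 CPM in FeCon, 7858 CPM in FeAAD, 6838 CPM in MaCon and 11142 CPM in MaAAD. The median log2 fold change over the 7 was -0.008 in FeAAD and 0.17 in MaAAD. Of 7 cardiac muscle markers 4 were called lower in FeAAD. Without FeAAD2, 34 mitotic and 12 replication members were called in FeAAD, as with it, and 10.2% of all genes.

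All 34 mitotic members were higher in FeAAD than in FeCon and all 34 were higher in MaAAD than in MaCon, and none was lower in either. A gene was called when edgeR's quasi-likelihood test gave a Benjamini-Hochberg adjusted p under 0.05 over all tested genes and the log2 fold change was at least 1 in size. By the same rule 9.94% of all genes were called higher in FeAAD and 9.18% in MaAAD, and 2.78% and 2.18% were called lower. The median log2 fold change of the 34 was 3.80 in females and 2.92 in males, where the median of all genes was 0.00 and -0.03. In females the changes ran from 2.27 (Bub1b) to 4.56 (Melk), and in males from 1.85 (Cenpa) to 3.91 (Melk). Every FeAAD library lay above every FeCon library for 26 of the 34, which was so for 3.63% of all genes. Every MaAAD library lay above every MaCon library for 30 of the 34, against 6.14% of all genes.

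Cdk1, its cyclins and their activators are the engine of mitotic entry. Cdk1 itself, the kinase that drives entry, had a median of 1.17 CPM in FeCon (lowest 0.729, highest 2.53), 2.95 CPM in FeNonAD (0.682 to 6.50) and 18.7 CPM in FeAAD (4.36 to 94.8). In males it had a median of 1.46 CPM in MaCon (0.601 to 3.14), values of 6.11, 2.23, 8.41 and 4.41 CPM in the 4 MaNonAD and a median of 15.2 CPM in MaAAD (8.26 to 44.3). AAD and Con did not overlap in either sex. The log2 fold change of AAD over Con was 4.30 ± 0.47 (SE, adjusted p = 9.8e-10) in females and 3.39 ± 0.46 (adjusted p = 1.9e-07) in males.

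Ccnb1, the cyclin B1 partner of Cdk1, was near 1 CPM or below in most controls. Its median was 0.782 CPM in FeCon (0.265 to 1.16), 2.13 CPM in FeNonAD (0.558 to 4.46) and 11.0 CPM in FeAAD (1.76 to 58.3). In males the median was 0.769 CPM in MaCon (0.401 to 2.09) and 10.9 CPM in MaAAD (3.25 to 25.5), with 2.99, 1.21, 4.27 and 2.87 CPM in the MaNonAD libraries. All AAD libraries stood above all controls of their sex. The change was 23.3-fold in females (log2 fold change 4.54 ± 0.49) and 12.5-fold in males (3.65 ± 0.49). The deposited count of Ccnb1 was not whole in 20 libraries, and rounding moved no value by more than 0.5 counts. Ccna2, cyclin A2, which acts in S phase and at mitotic entry, rose by 3.75 ± 0.42 in FeAAD and 3.02 ± 0.42 in MaAAD on the log2 scale. Foxm1, a transcription factor that switches on mitotic genes, had the smallest change in both sexes of the 6 genes of this role (Cdk1, Ccnb1, Ccnb2, Ccna2, Cdc25c and Foxm1), 2.76 ± 0.30 in females and 2.23 ± 0.31 in males.

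Mki67, the gene of the proliferation marker Ki-67, and Top2a, the topoisomerase that disentangles sister chromosomes, had the highest mean CPM of the mitotic members. Mki67 had a median of 3.55 CPM in FeCon (1.06 to 4.09), 8.39 CPM in FeNonAD (1.80 to 17.1) and 43.2 CPM in FeAAD (12.8 to 99.4). In males it had a median of 3.23 CPM in MaCon (1.54 to 17.3) and 35.7 CPM in MaAAD (16.8 to 61.5), and the MaNonAD libraries had 11.8, 4.46, 11.0 and 11.5 CPM. The highest MaCon value, in MaCon2, was above the lowest MaAAD value, so Mki67 overlapped in males and not in females. Top2a went from a median of 2.24 CPM (0.996 to 4.99) in FeCon to 40.4 CPM (6.72 to 107) in FeAAD. In males it went from 2.71 CPM (1.41 to 12.0) to 27.3 CPM (13.1 to 64.2), with no overlap. The log2 fold changes of Mki67 were 4.02 ± 0.44 and 2.77 ± 0.43 and those of Top2a 4.06 ± 0.45 and 2.99 ± 0.44, in females and males in turn.

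Of the kinases, Melk showed the largest change of all 50 members in males and in females. Melk, a kinase abundant in cycling cells, was barely detected in controls, at a median of 0.255 CPM in FeCon (0.0692 to 0.596) and 0.300 CPM in MaCon (0 to 0.981). It had a median of 5.28 CPM in FeAAD (1.24 to 19.5) and 5.45 CPM in MaAAD (1.45 to 11.1), above every control. The fold change was 23.6 in females and 15.1 in males. Pbk, another kinase of mitotic cells, rose by 4.45 ± 0.46 and 3.11 ± 0.44 on the log2 scale, Aurka, the kinase of the spindle poles, by 3.85 ± 0.43 and 2.66 ± 0.42, and Plk1, the polo-like kinase, by 2.91 ± 0.38 and 2.53 ± 0.40, in females and males in turn.

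The genes of the spindle and of the chromosome attachments moved together with these. The 8 spindle motors and binding proteins (Kif11, Kif20a, Kif23, Kif2c, Prc1, Nusap1, Tpx2, Hmmr) had median log2 fold changes of 3.45 in FeAAD and 2.75 in MaAAD. Kif2c, a kinesin that shortens microtubules at the centromere, was the highest of the 8 in both sexes. It had a median of 0.406 CPM in FeCon (0.142 to 0.823) and 7.74 CPM in FeAAD (1.33 to 29.2). Its median was 0.467 CPM in MaCon (0.255 to 1.37) and 6.29 CPM in MaAAD (2.65 to 14.3), and neither sex showed an overlap. Prc1, which bundles the microtubules of the central spindle, went from medians of 2.54 and 2.70 CPM in FeCon and MaCon to 32.2 and 25.6 CPM in FeAAD and MaAAD. The 5 centromere and kinetochore genes (Cenpa, Cenpe, Cenpf, Ndc80, Nuf2) had medians of 3.86 and 2.86 on the log2 scale, the 3 checkpoint genes (Bub1, Bub1b, Ttk) 3.99 and 3.11, and the 3 genes of the chromosomal passenger complex (Aurkb, Birc5, Cdca8) 3.78 and 2.82. Cdc20 and Ube2c, which act with the anaphase-promoting complex to end mitosis, had 3.27 and 4.02 in FeAAD and 2.76 and 2.92 in MaAAD.

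Bub1b and Cenpa had the smallest changes of the mitotic members. Bub1b, a kinase-like protein of the spindle checkpoint, had medians of 2.62 CPM in FeCon (1.92 to 3.65) and 12.4 CPM in FeAAD (4.18 to 31.3). In males its medians were 2.93 CPM in MaCon (1.27 to 4.78) and 10.4 CPM in MaAAD (5.06 to 17.8). Even these values did not overlap. Cenpa, the histone H3 variant of centromeres, went from a median of 2.54 CPM (1.66 to 3.86) to 14.9 CPM (4.41 to 48.3) in females without overlap. In males it went from 3.50 CPM (1.87 to 5.56) to 10.2 CPM (5.22 to 26.2), where the lowest MaAAD lay below the highest MaCon. The log2 fold changes were 2.27 ± 0.31 and 1.91 ± 0.32 for Bub1b and 2.69 ± 0.33 and 1.85 ± 0.34 for Cenpa.

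**Figure D2:**
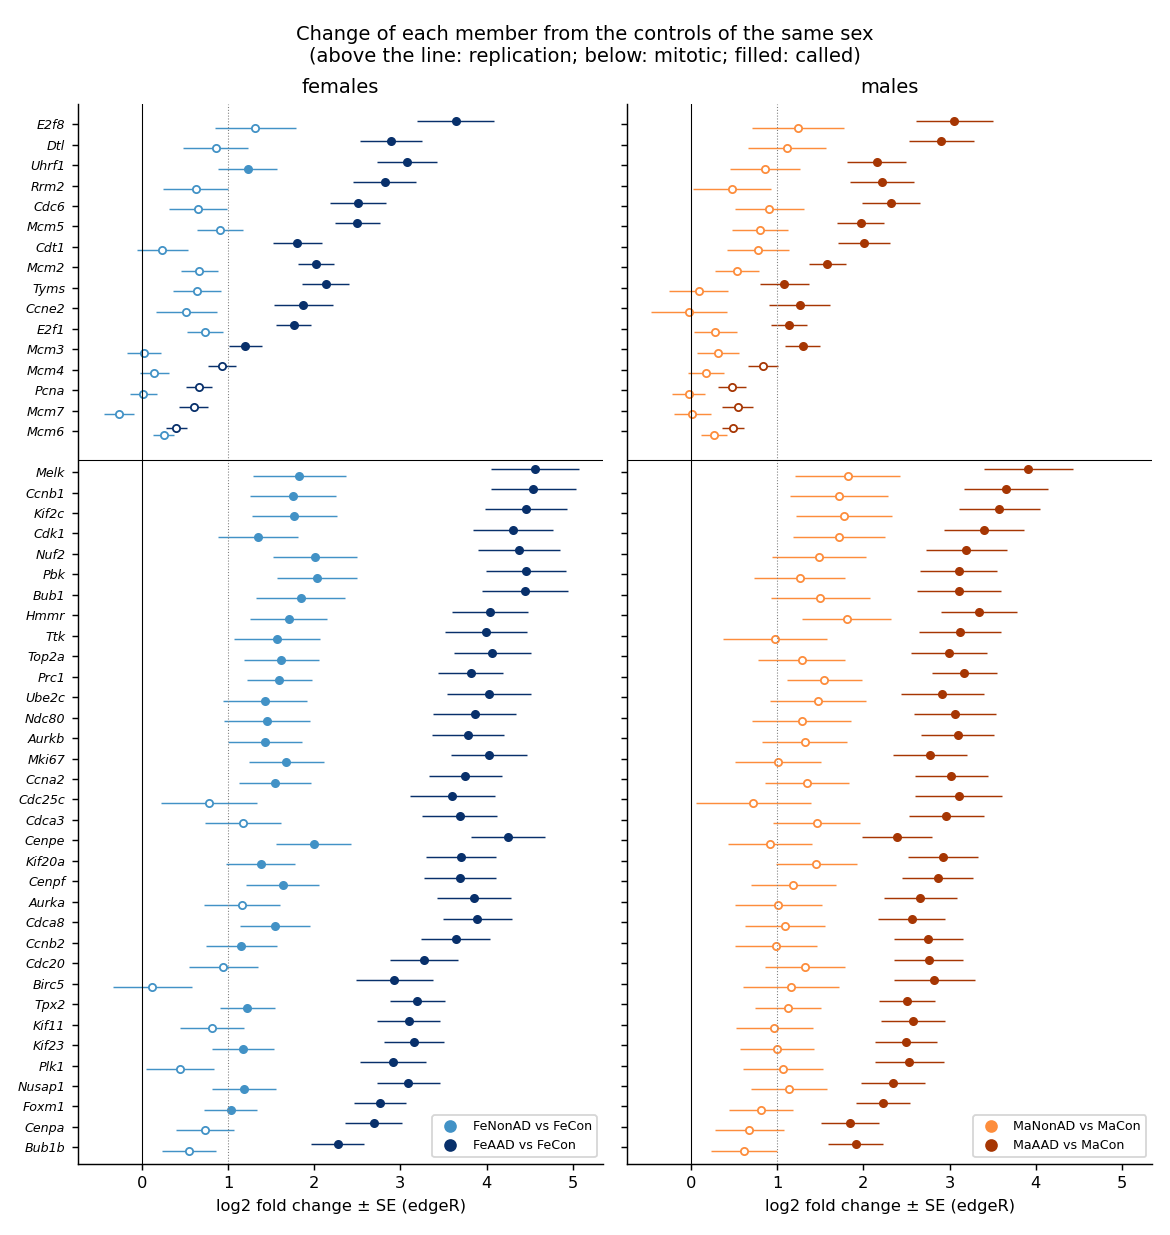
Log2 fold change ± SE of each member against the controls of its sex, for NonAD (light) and AAD (dark), females left and males right, filled where called. Replication members are above the line and mitotic members below it, each sorted by the mean AAD change. All mitotic points of AAD are filled and lie beyond 1.8, while the AAD points of Mcm4, Pcna, Mcm7 and Mcm6 are unfilled below 1.

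The replication members rose in AAD by less, and unevenly. All 16 had an adjusted p under 0.05 in both sexes, against 23.8% of all genes higher by that rule in FeAAD and 18.9% in MaAAD. Of the 16, 12 also passed a log2 fold change of 1 in each sex, where the shares of all genes were the 9.94% and 9.18% above. The same 4 members stayed under it in both sexes, namely Mcm4, Mcm6, Mcm7 and Pcna, the 4 with the highest mean CPM. The median log2 fold change of the 16 was 1.95 in females and 1.44 in males. Libraries of AAD and Con did not overlap for 7 of the 16 in females and 8 in males, against 3.63% and 6.14% of all genes.

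E2f8, a repressing E2F factor that is itself a target of E2F, showed the largest change. It had a median of 0.360 CPM in FeCon (0 to 0.656), 0.977 CPM in FeNonAD (0.133 to 2.04) and 4.83 CPM in FeAAD (1.51 to 9.67). Its median was 0.300 CPM in MaCon (0.200 to 2.03) and 3.66 CPM in MaAAD (2.17 to 9.03), with 1.56, 0.637, 1.31 and 1.54 CPM in MaNonAD. AAD stood above Con in every library of both sexes, and the log2 fold change was 3.64 ± 0.45 in females and 3.05 ± 0.45 in males. E2f1, an activating E2F, changed less, by 1.76 ± 0.20 and 1.14 ± 0.21. Ccne2, a cyclin of the entry into S phase, changed by 1.87 ± 0.34 and 1.26 ± 0.35.

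Dtl, the adaptor of a ubiquitin ligase that removes CDT1 once replication has begun, went from a median of 0.624 CPM (0.277 to 1.06) in FeCon to 3.74 CPM (1.39 to 11.7) in FeAAD. In males it went from 0.534 CPM (0.267 to 1.05) to 4.01 CPM (1.45 to 9.85). Neither sex showed an overlap, and the fold change was 7.40 and 7.48. Uhrf1, which carries DNA methylation over to the new strand, had a median of 2.68 CPM in FeCon (1.42 to 4.70), 6.46 CPM in FeNonAD (3.40 to 9.87) and 17.7 CPM in FeAAD (5.39 to 52.4). In males its median was 4.35 CPM in MaCon (1.93 to 13.1), where the highest value was again in MaCon2, and 18.6 CPM in MaAAD (9.12 to 47.7). The 4 MaNonAD libraries had 7.72, 7.96, 10.5 and 8.15 CPM.

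The genes of nucleotide supply and licensing lay between these extremes. Rrm2, a subunit of the reductase that makes deoxynucleotides, rose from a median of 2.84 CPM (1.56 to 3.78) to 14.0 CPM (4.42 to 58.2) in females and from 2.71 CPM (1.40 to 8.51) to 12.0 CPM (7.05 to 38.7) in males. Its log2 fold changes were 2.82 ± 0.37 and 2.22 ± 0.37. Tyms, which makes thymidylate, changed by 2.13 ± 0.27 in females and 1.08 ± 0.28 in males. Its deposited counts were not whole in 36 libraries. The licensing genes Cdc6 and Cdt1 changed by 2.51 ± 0.32 and 1.81 ± 0.29 in females and by 2.32 ± 0.33 and 2.00 ± 0.30 in males.

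The 6 subunits of the MCM helicase, which form 1 ring in equal number, changed by unequal amounts. In FeAAD over FeCon the log2 fold changes were 2.50 ± 0.26 for Mcm5, 2.02 ± 0.21 for Mcm2, 1.20 ± 0.19 for Mcm3, 0.93 ± 0.16 for Mcm4, 0.60 ± 0.17 for Mcm7 and 0.40 ± 0.12 for Mcm6. In MaAAD over MaCon they were 1.97 ± 0.27, 1.58 ± 0.21, 1.29 ± 0.20, 0.84 ± 0.17, 0.54 ± 0.18 and 0.48 ± 0.13, in the same order of genes. Per kilobase of the longest coding transcript (GENCODE M21), the mean levels in FeCon ran from 1.31 CPM per kb for Mcm5 and 1.79 for Mcm2 to 7.98 for Mcm7 and 16.6 for Mcm6. In FeAAD they were 7.44 for Mcm5, 7.25 for Mcm2, 12.1 for Mcm7 and 21.8 for Mcm6, so the subunits were closer to each other in ratio. The male groups showed the same narrowing in ratio, from 1.66 and 14.2 CPM per kb for Mcm5 and Mcm6 in MaCon to 6.50 and 19.8 in MaAAD. The male gap in CPM per kb did not narrow. The log2 fold changes are from the edgeR fit, and the levels per kilobase are means over mice of linear CPM. The differences between subunits were not tested.

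Mcm6 and Pcna were already abundant in controls. Mcm6 had a median of 71.3 CPM in FeCon (58.4 to 101) and 99.5 CPM in FeAAD (69.4 to 127). In males it had 61.5 CPM in MaCon (47.1 to 80.4) and 89.1 CPM in MaAAD (52.2 to 116), and both sexes overlapped. Pcna, the sliding clamp of the replication fork, had 48.7 CPM in FeCon (40.1 to 53.9), 49.6 CPM in FeNonAD (38.6 to 55.2) and 66.5 CPM in FeAAD (43.0 to 166). It had 49.2 CPM in MaCon (43.1 to 54.9) and 64.2 CPM in MaAAD (55.9 to 115), which did not overlap. The 4 MaNonAD libraries held 48.4, 47.2, 50.4 and 49.3 CPM of Pcna, within the range of MaCon. The change of Pcna was 0.66 ± 0.15 (adjusted p = 0.00032) in females and 0.48 ± 0.16 (adjusted p = 0.016) in males.

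In FeNonAD, aortas without a lesion, most mitotic members were raised and 15 of the 16 replication members were not called. Of the 34 mitotic members 25 were called higher than in FeCon, where 1.67% of all genes were, and their median log2 fold change was 1.43. Of the 16 replication members 1 was called, Uhrf1, at 1.23 ± 0.35, and the median was 0.63. By adjusted p alone there were 4 replication members, against 6.87% of all genes. No member was called lower, where 1.08% of all genes were. The 9 mitotic members that were not called were Aurka, Birc5, Bub1b, Cdc20, Cdc25c, Cdca3, Cenpa, Kif11 and Plk1. Birc5, survivin of the chromosomal passenger complex, stood at 0.13 ± 0.46, with medians of 2.03 CPM in FeCon (1.46 to 3.62) and 2.00 CPM in FeNonAD (0.799 to 5.73), while its partner Cdca8 was at 1.54. The largest changes were those of Pbk (2.03) and Nuf2 (2.01), a subunit of the kinetochore.

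The FeNonAD mice were not alike. FeNonAD1 and FeNonAD2 had mitotic means of 1.02 and 1.17, inside the FeCon range of 0.913 to 1.47, and each exceeded the highest control for 1 of the 34 mitotic members. FeNonAD5 and FeNonAD8, at 2.54 and 2.48, exceeded the highest control for 34 of 34. The other 4 exceeded it for 27 to 32 of 34. No member of either list had FeNonAD entirely above FeCon, which held for 0.367% of all genes. Left out in turn, FeNonAD5 or FeNonAD8 took the mitotic count from 25 to 17, and the share of all genes called higher from 1.67% to 1.34% or 1.1%. FeNonAD1 or FeNonAD2 took the count to 27, and the share to 1.91% or 1.82%. FeNonAD5 also had the highest thymocyte marker sum of its group, at 26.0 CPM. FeNonAD8 had the highest macrophage and fibroblast marker sums of the group, at 1080 and 11607 CPM.

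**Figure D3:**
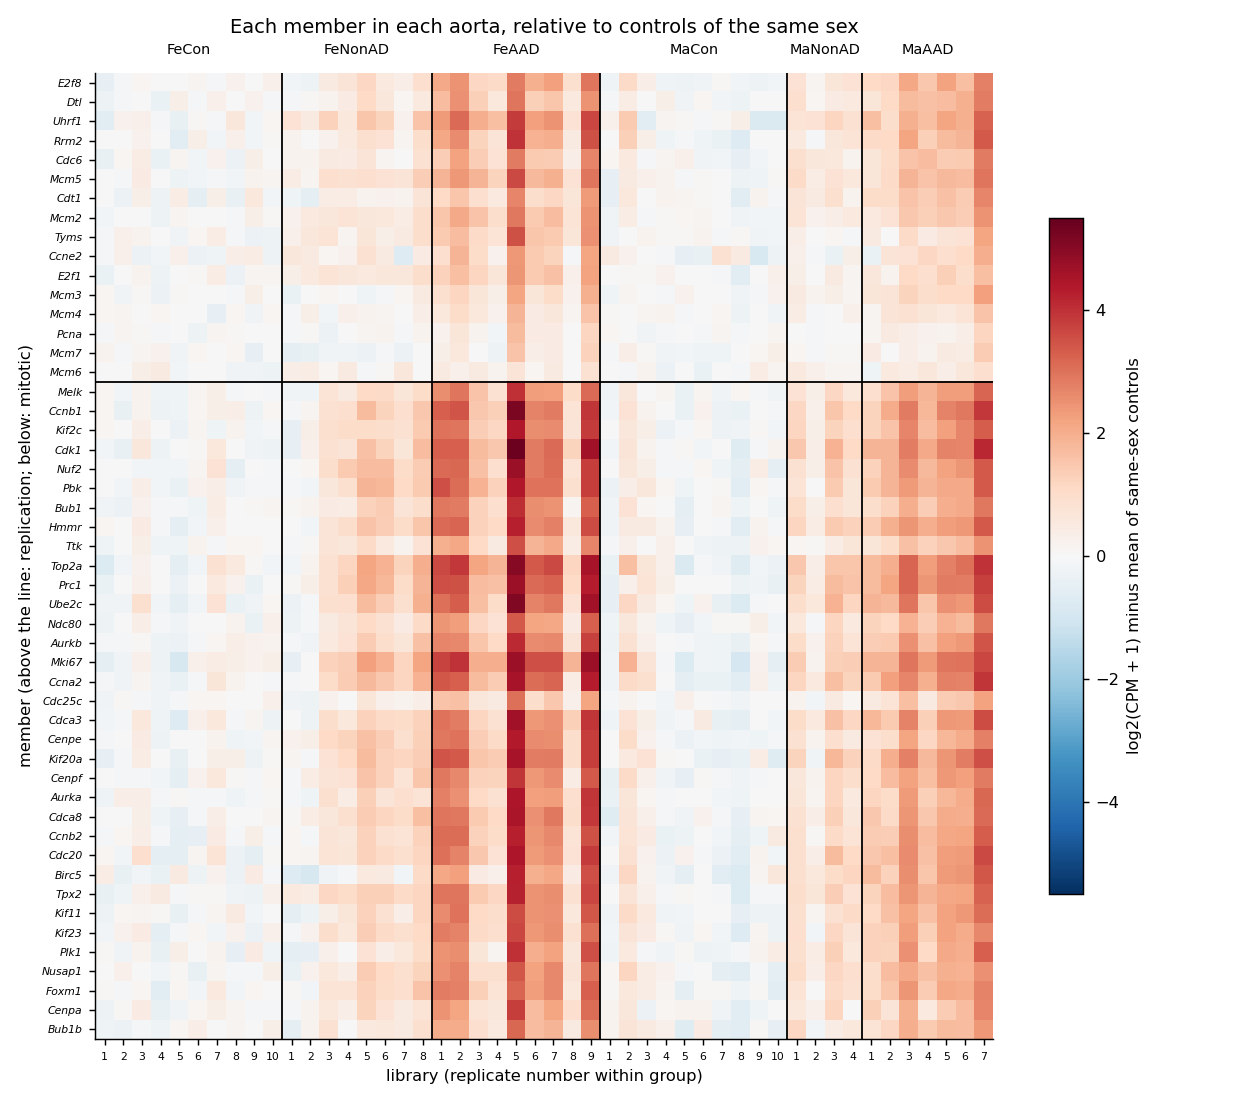
Log2(CPM + 1) of each member in each of the 48 aortas minus the mean of the controls of the same sex, with groups side by side and replication members above the line. The FeAAD columns 5 and 9 and the MaAAD column 7 are darkest, the FeNonAD columns 1 and 2 look like controls, and the MaCon column 2 is darker than its group.

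FeAAD exceeded FeNonAD for all 34 mitotic members (6.79% of all genes were called higher and 0.249% lower) and for 12 of the 16 replication members. The median log2 fold changes were 2.36 and 1.42. Without the 3 AAD libraries richest in neutrophil markers, which are FeAAD5, FeAAD9 and MaAAD7, 34 mitotic and 7 replication members were called, with medians of 1.71 and 0.93, and 4.33% of all genes. With all libraries, Cdk1 showed the largest difference of the 34, 2.96 ± 0.47, and Bub1b the smallest, 1.72 ± 0.32. The groups still overlapped for every member: the lowest FeAAD library was below the highest FeNonAD library, and 0.166% of all genes had FeAAD entirely above FeNonAD. FeAAD8, FeAAD4 and FeAAD3 had mitotic means of 1.93, 2.16 and 2.47, inside the FeNonAD range of 1.02 to 2.54, and FeAAD8 was the lowest of its group for 41 of the 50 members.

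In males the mitotic members were also higher in NonAD than in Con, all 34 of them, and did not pass the adjusted threshold. In MaNonAD against MaCon 0 of 50 members were called by edgeR, where 0.381% of all genes were higher and 0.097% lower, although 28 of the 34 mitotic and 7 of the 16 replication members had an unadjusted p under 0.05 (6.24% of all genes). The median log2 fold changes were 1.22 and 0.39, and the lowest adjusted p of a mitotic member was 0.086 (Prc1, 1.54 ± 0.44). DESeq2 called 2 mitotic members, Hmmr and Prc1, and 0 replication members, and its share of all genes was 0.487%. With MaNonAD and MaCon fitted without the other groups, edgeR called 9 mitotic members and 0.93% of all genes higher. Without the 4 libraries highest in thymocyte markers (MaCon2, MaNonAD2, MaAAD1 and FeNonAD5) it called 3, namely Hmmr, Kif20a and Prc1, and 0.628% of all genes. No member had MaNonAD entirely above MaCon, against 0.617% of all genes. MaNonAD2 was the lowest of its group for 42 of the 50 members, and exceeded the highest MaCon for none of the 34 mitotic members, whereas MaNonAD3 did for 27. The highest MaCon was MaCon2, the library rich in thymocyte markers, for 29 of the 34.

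In MaAAD against MaNonAD edgeR called 0 of 50 members, and 0.353% of all genes were higher and 0 genes lower. Without the neutrophil-rich MaAAD7, FeAAD5 and FeAAD9 it called 1, Cdc25c, and 1.47% of all genes higher. The unadjusted p was under 0.05 for all 34 mitotic and 15 of the 16 replication members, against 12.3% of all genes. Adjusted p-values of the mitotic members ran from 0.053 to 0.189, and the medians of the log2 fold changes were 1.64 and 1.11. DESeq2 called 23 mitotic and 7 replication members in this comparison, and 3.46% of all genes. MaAAD lay entirely above MaNonAD for 11 of the 34 mitotic and 5 of the 16 replication members, which was so for 2.97% of all genes. The call for these genes therefore differed between the 2 tests.

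Between the sexes no member was called by edgeR, fitted on all 6 groups, in any group or in any difference of responses. Among all genes 0.644% were higher and 0.866% lower in MaCon than in FeCon, 0.0416% and 0.00693% in MaNonAD than in FeNonAD, and 0.0554% and 0.0139% in MaAAD than in FeAAD. In AAD all 34 mitotic members were lower in males than in females, by a median of 0.511 on the log2 scale, and 0 had an unadjusted p under 0.05 in edgeR, where 1% of all genes were lower by that rule. For Mki67 the log2 difference between MaAAD and FeAAD was -0.55 ± 0.42 (SE). In controls the mitotic members had a median difference of 0.28, higher in males, with 1 of 34 at an unadjusted p under 0.05, and 3 of the 16 replication members were at that level, against 14.2% of all genes. Cenpe, a kinesin of the kinetochore, was the mitotic member (1.20 ± 0.43, adjusted p = 0.051 in edgeR). Cenpe was called in this comparison, as 1 of 34, by edgeR with the replicate number as a block (0.513% of all genes higher), by edgeR fitted on MaCon and FeCon only (0.466%) and by DESeq2 (0.782%). Without MaCon2 the median difference of the mitotic members was 0.07.

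The AAD response, MaAAD over MaCon less FeAAD over FeCon, was smaller in males for all 34 mitotic members, by a median of -0.79. Of them 4 had an unadjusted p under 0.05 and 0 were called by edgeR, against 7.81% of all genes lower by the unadjusted rule and 0.173% called lower and 0.346% called higher. The lowest p was again that of Cenpe (-1.85 ± 0.59, adjusted p = 0.091 in edgeR), which DESeq2 called along with 0.327% of all genes lower. The replication members had a median of -0.31, with 2 of 16 at an unadjusted p under 0.05, Tyms and E2f1. For the NonAD response the medians were -0.08 for the mitotic and -0.06 for the replication members, with 0 members at an unadjusted p under 0.05 in edgeR and 0 called by DESeq2. Of all genes 0.215% were called higher and 0.0832% lower there.

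The AAD libraries with the highest levels also had the most neutrophil markers. FeAAD5 was the highest FeAAD for 47 of the 50 members and MaAAD7 the highest MaAAD for 50 of 50. FeAAD5 and FeAAD9 had mitotic means of 5.35 and 4.78, and MaAAD7 had 4.51. Without these 3 libraries, all 34 mitotic members were still called in both sexes, with medians of 3.12 in females and 2.63 in males, where 8.42% and 8.37% of all genes were called higher. The replication members called went from 12 to 11 in females and from 12 to 9 in males, with medians of 1.43 and 1.16. Neutrophil precursor markers (8 genes) summed to 58.9 CPM in FeAAD5 and 31.8 CPM in MaAAD7. Of the 9 thymocyte markers 6 passed the filter, with a median log2 fold change of -0.29 in FeAAD and -1.22 in MaAAD, and the summed medians were 2.73 CPM in FeAAD and 3.78 CPM in MaAAD, with 3.92 CPM in FeCon and 7.35 CPM in MaCon. Without MaCon2, whose level was the highest of MaCon for 38 of the 50 members, the male AAD medians were 3.19 for the mitotic and 1.48 for the replication members, with 34 and 12 called and 9.54% of all genes. Without the 4 libraries highest in thymocyte markers the FeNonAD count of mitotic members was 19, where 1.39% of all genes were called higher.

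**Figure D4:**
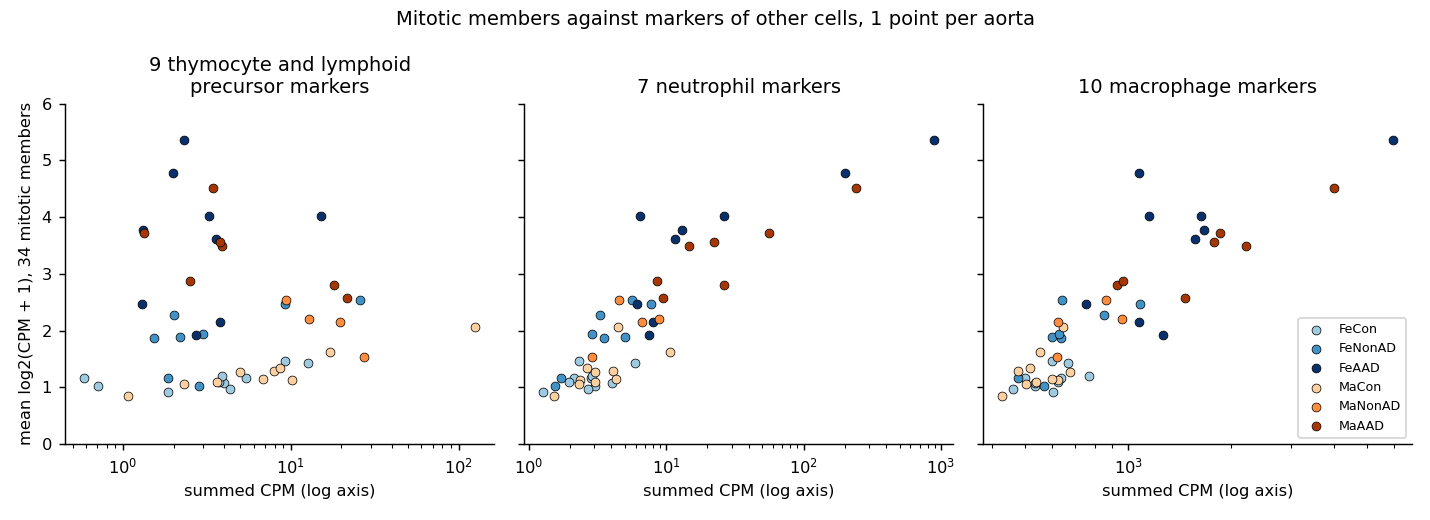
Mean log2(CPM + 1) of the 34 mitotic members against the summed CPM of thymocyte, neutrophil and macrophage markers (log axes), 1 point per aorta. The 3 aortas above 100 CPM of neutrophil markers have the 3 highest mitotic means of all 48, and the aorta at 125 CPM of thymocyte markers is the MaCon with a mitotic mean of 2.07.

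Other genes of both kinds were also called higher in AAD, and none was called lower. Beside each count, the share of all genes called higher was 9.94% in FeAAD, 9.18% in MaAAD, 1.67% in FeNonAD and 0.381% in MaNonAD. Of 50 other mitotic genes 43 were called higher in FeAAD, 42 in MaAAD, 22 in FeNonAD and 1 in MaNonAD, and their medians against Con were 3.24, 2.32, 1.09 and 0.90. The 3 with the lowest p were Iqgap3, Racgap1 and Ect2, which act in cytokinesis, at 3.80 ± 0.36, 3.61 ± 0.34 and 3.15 ± 0.31 in FeAAD and 3.08 ± 0.35, 2.71 ± 0.34 and 2.63 ± 0.32 in MaAAD. Iqgap3 was the 1 gene called in MaNonAD (1.78 ± 0.41, adjusted p = 0.021). Of 44 other replication genes 23 were called higher in FeAAD, 15 in MaAAD, 1 in FeNonAD and 0 in MaNonAD by edgeR, where 7 had an unadjusted p under 0.05 (6.24% of all genes). Their medians were 1.10, 0.70, 0.23 and 0.22. Tk1, thymidine kinase, rose by 3.92 ± 0.44 and 2.71 ± 0.43, Pole, the catalytic subunit of a replicative polymerase, by 2.32 ± 0.28 and 2.06 ± 0.29, and Dut, which removes dUTP, by 1.59 ± 0.18 in FeAAD. In MaAAD Dut stood at 0.86 ± 0.18. Pttg1, securin, stood at -0.49 ± 0.11 in FeAAD and -0.55 ± 0.12 in MaAAD, with an adjusted p under 0.05 in edgeR and short of the threshold of size, as did Rpa1 in FeAAD (-0.61 ± 0.14) and, in MaAAD, Pold2 (-0.48 ± 0.12) and Anln (-0.58 ± 0.19).

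Genes of the decision to enter the cycle moved less as a list. Of 22 cyclins, kinases, E2F factors and pocket proteins 6 were called higher in FeAAD and 5 in MaAAD, with none lower and medians of 0.32 and 0.20. Of all genes 9.94% and 9.18% were called higher in these groups, and 2.78% and 2.18% lower. Ccnd1, cyclin D1, which answers growth factors, rose by 1.55 ± 0.17 in FeAAD and 1.13 ± 0.17 in MaAAD. Rbl1, the pocket protein p107, rose by 2.07 ± 0.19 and 1.43 ± 0.20 and was also called in FeNonAD (1.16 ± 0.20), as was Cdk6 (1.08 ± 0.18). E2f7, the closest relative of E2f8, rose by 2.57 ± 0.34 and 2.70 ± 0.37. The others called were Ccne1, Mybl2 and, in females, E2f2. Cdk6, a partner of the D cyclins, had its lowest median in FeCon, 17.9 CPM (9.82 to 46.3). Its median was 42.3 CPM in FeNonAD (27.1 to 52.5), 40.4 CPM in FeAAD (31.0 to 48.1), 39.4 CPM in MaCon (25.5 to 48.9) and 35.9 CPM in MaAAD (30.1 to 40.5).

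The 8 CDK inhibitors did not move one way. Cdkn1a, p21, which halts the cycle after DNA damage, was called lower in FeAAD, FeNonAD and MaAAD. Its median was 164 CPM in FeCon (65.8 to 578), 53.9 CPM in FeNonAD (42.8 to 149) and 70.5 CPM in FeAAD (46.1 to 168). In males it was 143 CPM in MaCon (63.3 to 237) and 71.2 CPM in MaAAD (50.9 to 112), and the MaNonAD libraries had 48.0, 62.4, 114 and 64.9 CPM. The groups overlapped in every comparison, and the widest spread was in FeCon. The log2 fold changes were -1.35 ± 0.35 (adjusted p = 0.0015) in FeAAD, -1.42 ± 0.36 (adjusted p = 0.0067) in FeNonAD and -1.05 ± 0.38 (adjusted p = 0.026) in MaAAD. In MaNonAD the value was -1.06 ± 0.46 and was not called by edgeR (adjusted p = 0.32). With the replicate number as a block the male value was -0.94, under the threshold of 1. FeAAD and FeNonAD differed by 0.07 ± 0.36.

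Cdkn2a, which encodes p16 and p19ARF, was near the limit of detection, with 0 to 3 counts in FeCon and 0 to 7 in MaCon, and reached 4 to 27 counts in FeAAD and 4 to 44 in MaAAD. Its medians were 0.102 and 0.489 CPM in FeCon and FeAAD and 0.194 and 0.756 CPM in MaCon and MaAAD, and it was called higher in AAD in both sexes (2.52 ± 0.53 and 2.18 ± 0.49). Cdkn3, a phosphatase that acts on Cdk1 and is grouped here with the inhibitors, behaved like the mitotic members in size, at 4.02 ± 0.46 in FeAAD and 3.06 ± 0.46 in MaAAD. Cdkn2b, p15, was called higher in FeAAD (1.05 ± 0.25), while in MaAAD it stood at -0.51 ± 0.27. With the replicate number as a block the female value was 0.98, under the threshold of 1. Its median was 2.84 CPM in FeCon (1.86 to 4.37) and 7.44 CPM in MaCon (3.59 to 10.8), and 5.15 and 5.35 CPM in FeAAD and MaAAD. Cdkn1b, p27, was lower in FeAAD by adjusted p and short of the threshold of size (-0.59 ± 0.11), and Cdkn1c, p57, stood at -0.54 ± 0.19. Cdkn2c, p18, stood at 0.82 ± 0.22 and Cdkn2d, p19, at 0.14 ± 0.14.

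**Figure D5:**
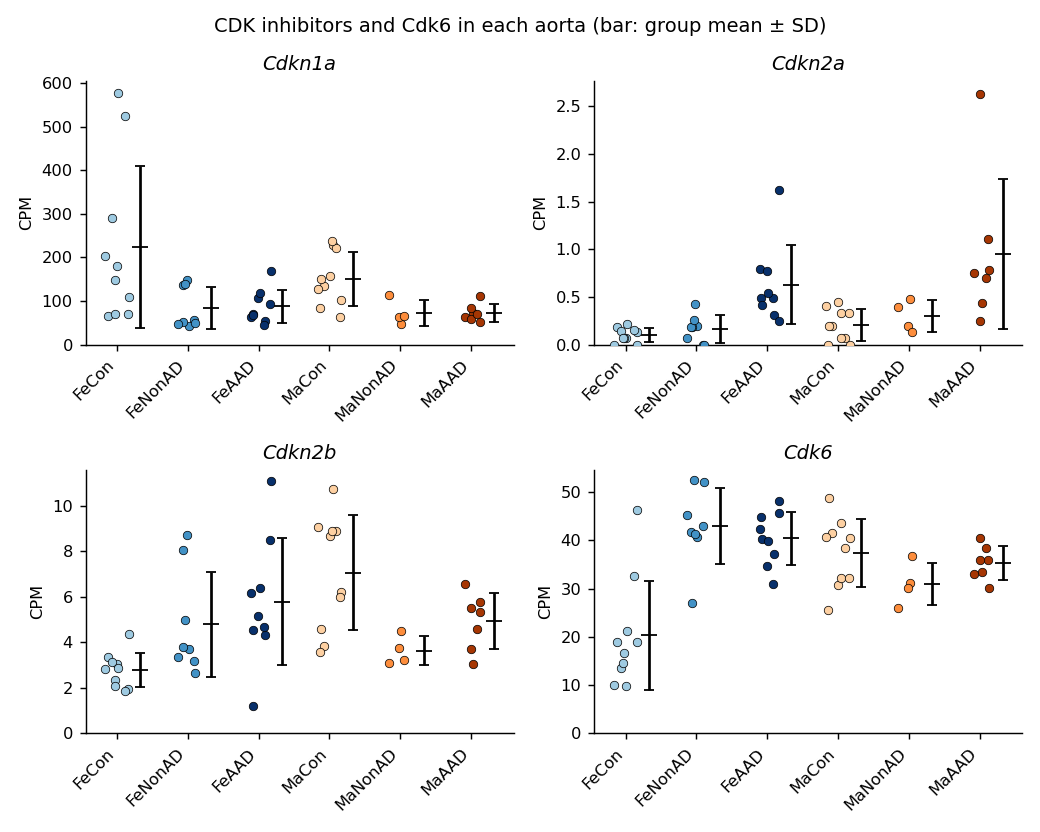
CPM of Cdkn1a, Cdkn2a, Cdkn2b and Cdk6 in each aorta, with the group mean ± SD beside each group. Cdkn1a has 2 FeCon aortas above 500 CPM, Cdkn2a stays under 3 CPM throughout, and Cdkn2b and Cdk6 have their lowest medians in FeCon.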

How the data were processed

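RNA was measured by strand-specific sequencing in 48 thoracic aortas, grouped as the labels state. The authors deposited estimated counts per gene, not scaled to library size; the submitters' processing notes name RSEM 1.3.1, Bowtie2 and GRCm39. Values were rounded to whole counts (4.99% were not whole). Libraries held 13548003 to 17281262 counts. Every group had replicates.

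Genes were tested with edgeR 4.0.16 (R 4.3.3): filterByExpr, TMM factors, robust quasi-likelihood fit with 6 group means over all 48 libraries, Benjamini-Hochberg adjustment over 14431 genes, and a call at an adjusted p under 0.05 with a log2 fold change of 1 or more in either direction. SEs were approximated by dividing each change by the root of its F statistic. Alternatives were DESeq2 1.42.0, its size factors in edgeR, no count filter, adjusted p alone, the compared groups only, the replicate number as a block, and libraries left out. The fits were tested on simulated data. Python 3.11.15, pandas 2.3.3 and matplotlib 3.10.9 made tables and figures.

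CPM used TMM-scaled totals, and log2 levels an offset of 1. Promoters came from RefSeq (GRCm38.p6), matched by symbol, and transcript lengths from GENCODE M21 (GRCm38); no coordinate was carried to GRCm39. The members and lists were chosen with earlier results of these data known. Values are given for those highest in mean CPM and those with the largest and smallest mean AAD change, and for the lowest p of each other list. Members taken up for other reasons (Birc5, Cenpe, Foxm1 and others) were chosen after their values were seen. Separate mice were the replicates. Mice shared cages, which the labels do not give.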

Additional observations from a re-analysis of the deposited data

Results flagged for a closer look

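In MaCon, the mean log2(CPM + 1) of the 16 replication members was 3.24 in MaCon2, against a median of 2.76 over the group, and Dixon's test set this library apart. MaCon2 also had the highest thymocyte marker sum of all 48 libraries (125 CPM). In MaAAD the same mean was 5.07 in MaAAD7, against a median of 4.01. MaAAD7 had the highest sums of neutrophil (241 CPM), macrophage (3984 CPM), erythroid (2124 CPM) and cardiac muscle (395 CPM) markers in its group. Dixon's test set a library apart in these 2 of 12 tests, of 6 groups for each of 2 list means. Chance sets apart a library in about 1 test in 20. The part of any of these markers in the level was not tested.

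The change from Con differed between the sexes for 3 genes of the other lists, by interaction terms in edgeR with adjusted p under 0.05. Those lists hold 44, 50, 22 and 8 genes. By the same rule 41 of all 14431 genes were higher and 19 lower in NonAD, and 113 were higher and 81 lower in AAD. For Cdkn2b the difference (male response minus female response) was -1.74 in NonAD (adjusted p = 0.048) and -1.56 in AAD (adjusted p = 0.021). For Cdk6 it was -1.36 in NonAD (adjusted p = 0.020) and -1.08 in AAD (adjusted p = 0.021). For Rpa1, a subunit of the protein that covers single-stranded DNA, it was 1.15 in NonAD (adjusted p = 0.012) and 1.00 in AAD (adjusted p = 0.0093), the last just short of a log2 difference of 1. The median of Rpa1 was 109 CPM in FeCon (48.8 to 137) and 48.4 CPM in MaCon (42.0 to 84.9), and 56.7 CPM in FeNonAD and 62.9 CPM in FeAAD. Males over females, Cdkn2b stood at 1.34 in controls (called, adjusted p = 0.00032 in edgeR), -0.40 in NonAD and -0.23 in AAD. Cdk6 stood at 0.88 (adjusted p = 0.00053), -0.47 and -0.20 in the same order. Neither was called between the sexes in NonAD or AAD. FeCon2 had the highest Cdk6 and the lowest Rpa1 of FeCon.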

How the results depend on the processing

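Counts of called members were recomputed under each alternative, and 300 of 320 stayed within 1.5 times. For replication members in FeNonAD against FeCon, 1 was called, and 4 by adjusted p alone, 2 by DESeq2, 2 with the compared groups only, and 1 to 2 with FeNonAD libraries left out in turn (2 without FeNonAD1 or FeNonAD2). In FeAAD against FeNonAD they went from 12 to 7 without the 3 AAD libraries highest in neutrophil markers. For mitotic members in MaNonAD against MaCon, 0 were called, and 2 by DESeq2, 9 with the compared groups only, 3 without the 4 libraries highest in thymocyte markers, and 0 to 1 with MaNonAD libraries left out in turn (1 without MaNonAD2). In MaAAD against MaNonAD, 0 replication members were called, and 7 by DESeq2, 2 with its size factors in edgeR, and 0 to 3 with MaNonAD libraries left out (3 without MaNonAD1). For mitotic members there, 0 became 23 by DESeq2, 0 to 1 with MaNonAD libraries left out and 1 without the 3 neutrophil-rich libraries. In MaCon against FeCon, 1 mitotic member was called by DESeq2, with the compared groups only and with the replicate block. In the sex difference of AAD, DESeq2 called 1. The causes were not tested. With FeNonAD libraries left out in turn, 17 to 27 mitotic members were called in FeNonAD against FeCon (25 with all), 17 without FeNonAD5 or FeNonAD8. Leaving out FeNonAD replicates other than 8, MaCon2, FeAAD2 or the sets of marker-rich libraries was chosen after seeing the data.

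The replicate number pairs nothing that the labels name. Deviations of same-numbered libraries correlated at -0.53 to 0.47, and at most 2 of 8 pairs in a comparison correlated best with their own number. With the replicate number as a block 22 mitotic members were called in FeNonAD. Of 426 values of named genes under alternatives, 412 kept their side of the rule for a call and none turned in direction. Cdk1 and Cdkn3 in FeNonAD each lost their call under several alternatives. Their log2 fold changes there stayed above 1, at 1.16 to 1.37 for Cdk1 and 1.32 to 1.45 for Cdkn3. Cdkn1a in MaAAD and Cdkn2b in FeAAD lost theirs with the replicate number as a block. MaNonAD, with 4 mice, limits every male NonAD comparison.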
